A study of Mus musculus with 15 samples.

Results

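Kupffer cells are the macrophages that live in the liver, and they were followed here through 10 marker genes: Clec4f, Vsig4, Cd5l, Timd4, Marco, Adgre1, Csf1r, C1qa, C1qb and C1qc. The 10 genes were chosen by name, with earlier results of these data known, out of 18193 genes measured. Each was read at the probe set annotated to that symbol alone with the highest mean over all 15 arrays. Together the 10 genes had 15 such probe sets. The RNA came from whole livers of grown male mice and was hybridised to an Affymetrix oligonucleotide array of the mouse genome, 1 liver pool to an array. The question of the study was whether the expression pattern of males malnourished around birth recurs in their sons. The 15 pools formed 5 groups of 3, and the number 3 in the sample titles was read as livers per pool.

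The titles of the control pools name both generations while the design text lists a control for each, so whether a control pool mixes generations or holds 1 is not stated. They are treated here as 1 control group. IUGR F1 pools came from males whose supply of calories was restricted by 50% before birth (intrauterine growth restriction). ON F1 pools came from males overfed while they were suckling. The F2 pools of each name held livers of adult sons of those males. Strain, exact age and litters are not given in the sources used here. No allele or transgene is named for any group. Nothing says that the pools of a group came from separate litters, so a p-value here measures only how far these pools spread.

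Kupffer cells line the liver sinusoids and clear bacteria, dying cells and aged red blood cells from portal blood. They depend on signalling through the CSF1 receptor and on the transcription factor PU.1, encoded by Spi1, and in mice they are told from other macrophages by surface proteins such as CLEC4F, VSIG4 and TIM4. They are also a main source of complement C1q, whose recognition subunit is built from the products of C1qa, C1qb and C1qc.

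Levels are given on the log2 scale as made by RMA, the robust multi-array average, and array medians lay between 4.60 and 4.68. For hepatocytes, the main cells of the tissue, the median over 11 marker genes lay between -0.04 and 0.04 of the control mean in every pool. Pool 13 (ON F2) stood apart in exocrine pancreas genes, whose median over 9 genes was 4.29 above the control mean there and between -0.04 and 0.20 in the other pools. Pool 8 (ON F1) stood apart in interferon response genes (median 1.47 over 15 genes) and pool 5 (IUGR F1) in skeletal muscle genes (median 0.65 over 10 genes). Results for these groups are therefore given also without those pools.

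Kupffer cell markers were lowest in livers of males underfed before birth and highest in the sons of males overfed while suckling. The mean of the 10 markers, relative to the control mean, was -0.45 ± 0.04 (SD, n = 3) in IUGR F1, -0.25 ± 0.33 in IUGR F2, -0.10 ± 0.11 in ON F1 and 0.20 ± 0.26 in ON F2 pools. The control pools themselves spread by 0.29 (SD, n = 3) around their mean, between -0.20 and 0.33. No marker passed an adjusted p of 0.05 in any comparison with limma, so the values below describe these pools. In bulk tissue, fewer Kupffer cells and less RNA per cell cannot be told apart.

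**Figure D1:**
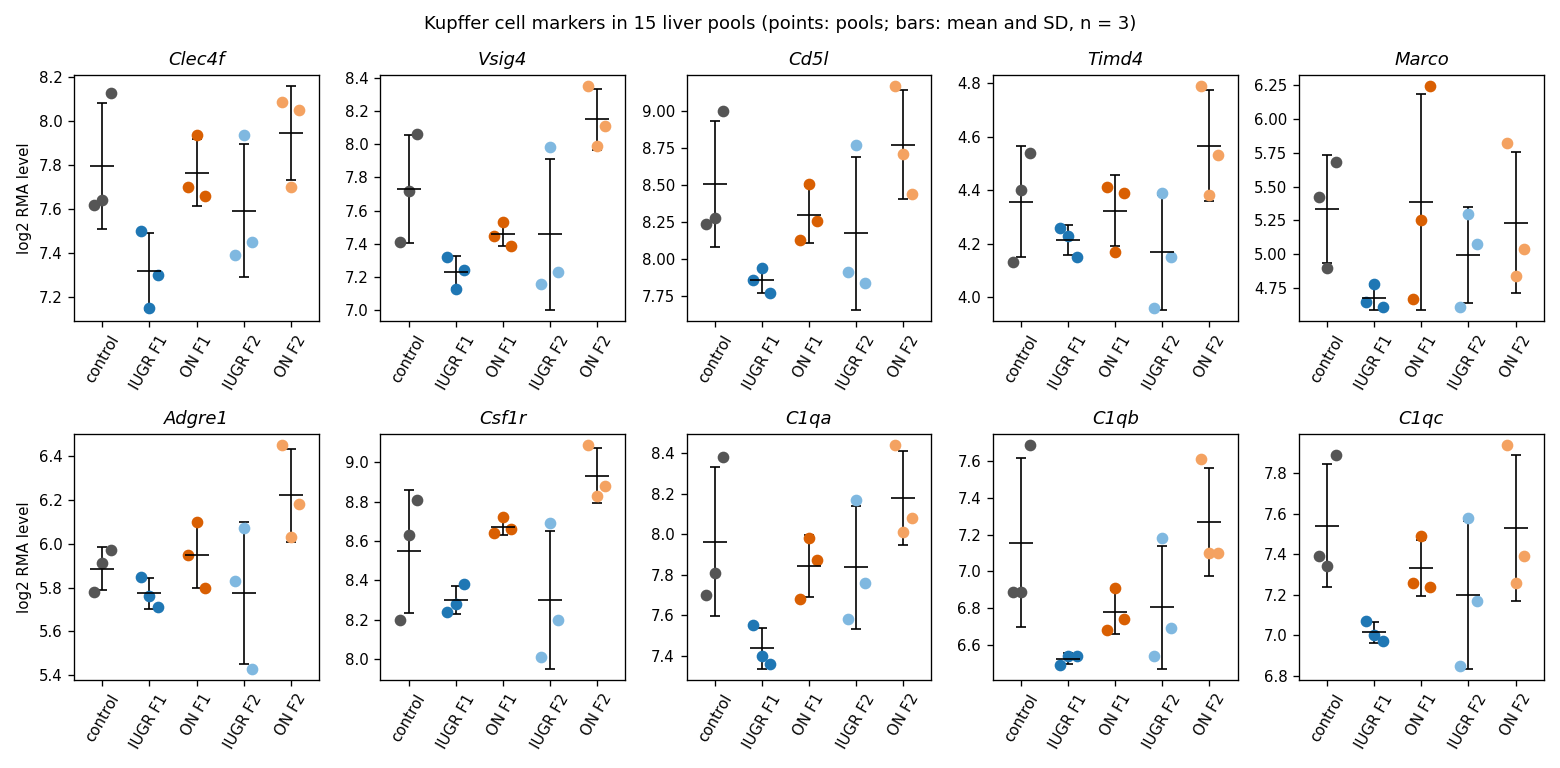
Log2 RMA level (vertical axis, a separate scale for each gene) of the 10 Kupffer cell markers in control, IUGR F1, ON F1, IUGR F2 and ON F2 livers. Points are pools and bars are the mean and SD over 3 pools. For Clec4f the 3 IUGR F1 pools, 7.15 to 7.50, lie below all 3 control pools, 7.62 to 8.13.

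Promoter sequences were available for 7 of the 10 genes, from RefSeq on build GRCm38.p6, and the 250 bases upstream of the start were searched for GAGGAA or its reverse complement TTCCTC, the core letters bound by PU.1. The letters were found upstream of 5 of these 7 genes, against 7639 of all 32851 upstream windows of 250 bases (23.3%). A match is a description of the letters and does not show binding. Vsig4, Cd5l, C1qb and C1qc are shown because their levels carry the comparisons below, and Clec4f, the most restricted marker, because it has no match in this window. Each is printed from 5′ to 3′ in the direction of transcription and ends at the base before the start, with the matched letters in capitals. The windows are chr6:83656117-83656366 (minus strand) for Clec4f, chrX:96293439-96293688 (minus strand) for Vsig4, chr3:87357631-87357880 (plus strand) for Cd5l, chr4:136886201-136886450 (minus strand) for C1qb and chr4:136892915-136893164 (minus strand) for C1qc.
Clec4f: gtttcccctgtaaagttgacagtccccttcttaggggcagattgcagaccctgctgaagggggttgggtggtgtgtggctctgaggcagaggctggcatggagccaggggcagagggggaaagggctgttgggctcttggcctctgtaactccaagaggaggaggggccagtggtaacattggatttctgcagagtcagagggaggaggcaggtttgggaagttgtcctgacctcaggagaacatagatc
Vsig4: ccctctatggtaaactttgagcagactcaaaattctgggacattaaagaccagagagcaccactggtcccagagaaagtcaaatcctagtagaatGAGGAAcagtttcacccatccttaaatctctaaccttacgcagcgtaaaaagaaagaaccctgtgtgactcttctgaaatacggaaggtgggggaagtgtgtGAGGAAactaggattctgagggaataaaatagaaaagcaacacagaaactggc
Cd5l: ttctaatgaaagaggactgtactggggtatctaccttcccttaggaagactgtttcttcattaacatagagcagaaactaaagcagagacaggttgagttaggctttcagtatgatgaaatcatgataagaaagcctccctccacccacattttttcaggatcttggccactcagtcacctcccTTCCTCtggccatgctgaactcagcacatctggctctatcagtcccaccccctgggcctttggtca
C1qb: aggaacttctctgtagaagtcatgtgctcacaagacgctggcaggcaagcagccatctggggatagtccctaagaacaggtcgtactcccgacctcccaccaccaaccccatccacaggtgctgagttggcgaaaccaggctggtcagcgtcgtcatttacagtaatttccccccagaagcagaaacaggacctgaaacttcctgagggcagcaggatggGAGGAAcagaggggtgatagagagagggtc
C1qc: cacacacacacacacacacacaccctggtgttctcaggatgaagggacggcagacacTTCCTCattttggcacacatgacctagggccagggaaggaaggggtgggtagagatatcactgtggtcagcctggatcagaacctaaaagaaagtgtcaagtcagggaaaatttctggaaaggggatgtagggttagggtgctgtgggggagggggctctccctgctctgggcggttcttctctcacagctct
Vsig4 holds the letters at 2 places, whose first bases lie 155 and 53 bases before the start. In C1qb the match lies closest to the start, 30 bases before it.

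Among the surface receptors, Clec4f encodes a C-type lectin made in mice almost solely by Kupffer cells. Its log2 level was 7.62, 7.64 and 8.13 in the control pools, 7.50, 7.15 and 7.30 in IUGR F1, 7.70, 7.94 and 7.66 in ON F1, 7.39, 7.94 and 7.45 in IUGR F2, and 8.09, 7.70 and 8.05 in ON F2. Every IUGR F1 pool was below every control pool and every ON F1 pool, while the other groups overlapped the controls. IUGR F1 stood at 0.719 of the control level, a log2 difference of -0.48 ± 0.17 (SE), with an adjusted p of 0.475 (limma, n = 3 pools a group). Without control pool 3, the highest control, it was -0.31.

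Vsig4, which encodes a complement receptor that captures opsonised bacteria, had log2 levels of 7.41, 7.72 and 8.06 in control, 7.32, 7.13 and 7.24 in IUGR F1 and 7.45, 7.53 and 7.39 in ON F1 pools. In the second generation the levels were 7.16, 7.98 and 7.23 in IUGR F2 and 8.35, 7.99 and 8.11 in ON F2 pools. All ON F2 pools were above all ON F1 and IUGR F2 pools, and all IUGR F1 pools were below the controls. The difference of 0.70 ± 0.19 between ON F2 and ON F1, a level 1.62 times as high, had the smallest adjusted p of any marker in any comparison (0.0723, limma). Under the alternatives tried its adjusted p ran from 0.0605 to 0.323, and without pool 13 the difference was 0.60 ± 0.21 (limma adjusted p = 0.169). IUGR F2 differed from ON F2 by -0.70 ± 0.19 (limma adjusted p = 0.255). IUGR F1 differed from control by -0.50 ± 0.19 (limma adjusted p = 0.495), or by -0.34 without control pool 3 and -0.66 without control pool 1.

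Timd4 encodes TIM4, a phosphatidylserine receptor for dying cells, and its probe set was dim, with a mean of 4.33 over 15 pools, under the array medians. The log2 levels were 4.13, 4.40 and 4.54 in control, 4.26, 4.23 and 4.15 in IUGR F1, 4.41, 4.17 and 4.39 in ON F1, 3.96, 4.39 and 4.15 in IUGR F2 and 4.79, 4.38 and 4.53 in ON F2 pools. IUGR F1 and control pools overlapped, and the difference of -0.14 had an unadjusted 95% interval from -0.42 to 0.14 and was -0.05 without control pool 3 and -0.26 without control pool 1. Differences of dim probe sets can be understated by RMA, which was not tested for this gene.

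Marco, a scavenger receptor for bacteria and particles, had log2 levels of 5.42, 4.90 and 5.68 in control, 4.65, 4.78 and 4.61 in IUGR F1, 4.67, 5.25 and 6.24 in ON F1, 4.61, 5.30 and 5.08 in IUGR F2 and 5.82, 4.84 and 5.04 in ON F2 pools. The 3 IUGR F1 pools again lay below the controls, but the ON F1 pools ran from 4.67 to 6.24, with pool 9 the highest of all 15. Its difference in IUGR F1 was -0.66 ± 0.33 (limma adjusted p = 0.62). A second Marco probe set, dimmer at a mean of 4.28, gave -0.07 ± 0.13, and the pair correlated across pools at r = 0.54 (n = 15), so the size for Marco depends on the probe set read.

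Adgre1 encodes F4/80, the adhesion receptor by which mouse macrophages are commonly stained. Its log2 levels were 5.78, 5.91 and 5.97 in control, 5.85, 5.76 and 5.71 in IUGR F1, 5.95, 6.10 and 5.80 in ON F1, 5.83, 6.07 and 5.43 in IUGR F2 and 6.45, 6.03 and 6.18 in ON F2 pools. The ON F2 pools were all above the controls, while IUGR F1 and control overlapped. The differences from control were 0.33 ± 0.14 in ON F2 and -0.11 ± 0.14 in IUGR F1 (limma adjusted p = 0.286 and 0.873).

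Csf1r encodes the receptor tyrosine kinase through which CSF1 and IL-34 keep macrophages alive. Its log2 levels were 8.20, 8.63 and 8.81 in control, 8.24, 8.28 and 8.38 in IUGR F1, 8.64, 8.72 and 8.66 in ON F1, 8.01, 8.69 and 8.20 in IUGR F2 and 9.09, 8.83 and 8.88 in ON F2 pools. The IUGR pools lay below the ON pools without overlap in the first generation (8.24 to 8.38 against 8.64 to 8.72) and in the second (8.01 to 8.69 against 8.83 to 9.09). IUGR F2 differed from ON F2 by -0.63 ± 0.16, a level of 0.645 (limma adjusted p = 0.238), and by -0.49 at the least when single pools were left out. IUGR F1 differed from ON F1 by -0.37 ± 0.16 (limma adjusted p = 0.753). Of 2 further Csf1r probe sets, 1 followed the first across pools (r = 0.88) and gave -0.53 ± 0.15 between IUGR F2 and ON F2. The other was less alike (r = 0.57) and gave -0.39 ± 0.09 there, but -0.01 ± 0.09 between IUGR F1 and control.

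The ligands of the receptor stood close to control. Csf1 differed by 0.07 ± 0.13 between IUGR F1 and control and Il34 by -0.03 ± 0.09, the latter 0.01 with each array centred on its 75th percentile (limma adjusted p = 0.926 and 0.948). Of 8 measured genes among ligands and signalling partners of the receptor, 4 were lower and 4 higher in IUGR F1 than in control, with a median of 0.00 and no call (2 lower with arrays centred on the 75th percentile). Tyrobp, an adaptor protein of macrophage receptors, was the lowest of them. It read 6.29, 6.57 and 6.83 in control and 6.12, 6.14 and 5.97 in IUGR F1 pools, a difference of -0.48 ± 0.16 (limma adjusted p = 0.474). Plcg2, a phospholipase downstream of such receptors, differed by -0.15 ± 0.11 (limma adjusted p = 0.73).

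Transcription factors of these cells lay on both sides of control. Spi1 differed by -0.10 ± 0.11 in IUGR F1, Spic, a factor of iron-recycling macrophages, by -0.07 ± 0.15, and Nr1h3, the oxysterol receptor LXR alpha, by -0.04 ± 0.08 (0.00 with each array centred on its 75th percentile). Spic was dim, at a mean of 3.57, and Nr1h3 is expressed by hepatocytes as well. Of 13 measured factors 6 were lower (5 to 7 under other scalings), with a median of 0.02 and no call with limma. Id1, an inhibitor of helix-loop-helix factors, was higher by 0.88 ± 0.30, and Cebpb, which hepatocytes express too, differed by -0.36 ± 0.19 (limma adjusted p = 0.475 and 0.641). Leaving out single pools moved Id1 between 0.50, without pool 6, and 1.26, without pool 5, and Cebpb between -0.59 and -0.23.

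Cd5l encodes a secreted protein of macrophages, also called AIM, that travels in blood bound to IgM. Its log2 levels were 8.24, 8.28 and 9.00 in control, 7.86, 7.94 and 7.77 in IUGR F1, 8.13, 8.51 and 8.26 in ON F1, 7.91, 8.77 and 7.84 in IUGR F2 and 9.17, 8.71 and 8.44 in ON F2 pools. The IUGR F1 pools lay below every control and ON F1 pool, and 2 of 3 IUGR F2 pools were as low. IUGR F1 stood at 0.637 of control, a difference of -0.65 ± 0.25 (limma adjusted p = 0.499). Leaving out control pool 3, the highest control, brought the difference to -0.40.

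The 3 C1q genes lie next to each other on chromosome 4 with no other RefSeq gene between them. C1qa read 7.70, 7.81 and 8.38 in control, 7.55, 7.40 and 7.36 in IUGR F1, 7.68, 7.98 and 7.87 in ON F1, 7.58, 8.17 and 7.76 in IUGR F2 and 8.44, 8.01 and 8.08 in ON F2 pools. For C1qb the levels were 6.89, 6.89 and 7.69 in control, 6.49, 6.54 and 6.54 in IUGR F1, 6.68, 6.91 and 6.74 in ON F1, 6.54, 7.18 and 6.69 in IUGR F2 and 7.61, 7.10 and 7.10 in ON F2. C1qc gave 7.39, 7.34 and 7.89 in control, 7.07, 7.00 and 6.97 in IUGR F1, 7.26, 7.49 and 7.24 in ON F1, 6.85, 7.58 and 7.17 in IUGR F2 and 7.94, 7.26 and 7.39 in ON F2. In all 3 genes the IUGR F1 pools lay below every control pool and every ON F1 pool, and were the most alike of any group. The differences of IUGR F1 from control were -0.53 ± 0.18 for C1qa, -0.64 ± 0.21 for C1qb and -0.52 ± 0.19 for C1qc, levels of 0.694, 0.644 and 0.695 (limma adjusted p = 0.474, 0.465 and 0.486). Without control pool 3 the same differences were -0.32, -0.37 and -0.35. The 2 other C1qb probe sets differed by -0.47 ± 0.16 and -0.93 ± 0.25 in IUGR F1 and correlated with the first at r = 0.84 and 0.95 over 15 pools.

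C1q acts with the proteases C1r and C1s, which hepatocytes make. C1ra differed by -0.20 ± 0.08 between IUGR F1 and control and C1s1 by -0.38 ± 0.16 (limma adjusted p = 0.513 and 0.54). A list of 8 measured complement genes outside C1q held C1ra, C1s1 and C2. It also held the lectin pathway proteases Masp1 and Masp2, the inhibitors Serping1 and C4bp, and the chaperone gene Calr. All 8 were lower in IUGR F1, with a median of -0.11 and no call, but only 6 with arrays centred on the 75th percentile. C2, a protease that the C1 complex cleaves, rose by 0.40 ± 0.09 from ON F1 to ON F2 (limma adjusted p = 0.0388). This call was lost when any of the 6 pools was left out and in a fit of these 6 arrays alone (limma adjusted p = 0.162). In the same comparison Elmo1, an adaptor for the engulfment of dying cells, rose by 0.44 ± 0.10 (limma adjusted p = 0.0495), also lost without any 1 of the 6 pools, and the difference was 0.09 as a mean over all its probe sets.

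Across the 10 markers, livers of males underfed before birth were lower than control for 10 of 10 genes, where 47.7% of all genes were lower. The median difference was -0.51 against 0.01 over all genes. None of the 10 was called, as was 0% of all genes, and 6 had an unadjusted limma p under 0.05 in the lower direction against 2.97% of all genes. For 7 markers (Clec4f, Vsig4, Cd5l, Marco and the 3 C1q genes) the IUGR F1 pools lay wholly below the control pools, against 5.89% of all genes. Levels of the markers varied together (median r of 0.81 over 45 pairs), and the markers were chosen with earlier results of these data known. Counts of markers, here and below, are therefore descriptions and not separate evidence, also where a share of all genes stands beside them. The difference of IUGR F1 from control leaned on control pool 3, in which all 10 markers were above the control mean. Without it the 10 markers were still lower, with a median of -0.33, but none had an unadjusted p under 0.05. The list of blood monocyte and neutrophil genes was also high in pool 3. Its median over 14 genes was 0.17 there and -0.13 and -0.09 in the other control pools. S100a8, a neutrophil gene named after its values were seen, read 6.73 in pool 3 and 4.15 and 4.40 in the other control pools. Further genes of the list, named in the same way, went both ways in pool 3. The monocyte gene Ccr2 read 4.99 there against 5.34 and 5.47, and Itgam 3.23 against 3.30 and 3.53. Plac8 read 7.54 against 7.11 and 7.16. Over 15 pools that list median correlated with the mean of the 10 markers at r = 0.71, and the part of these cells in the result was not tested. Without pool 5, which held muscle transcripts, the median was -0.48.

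**Figure D2:**
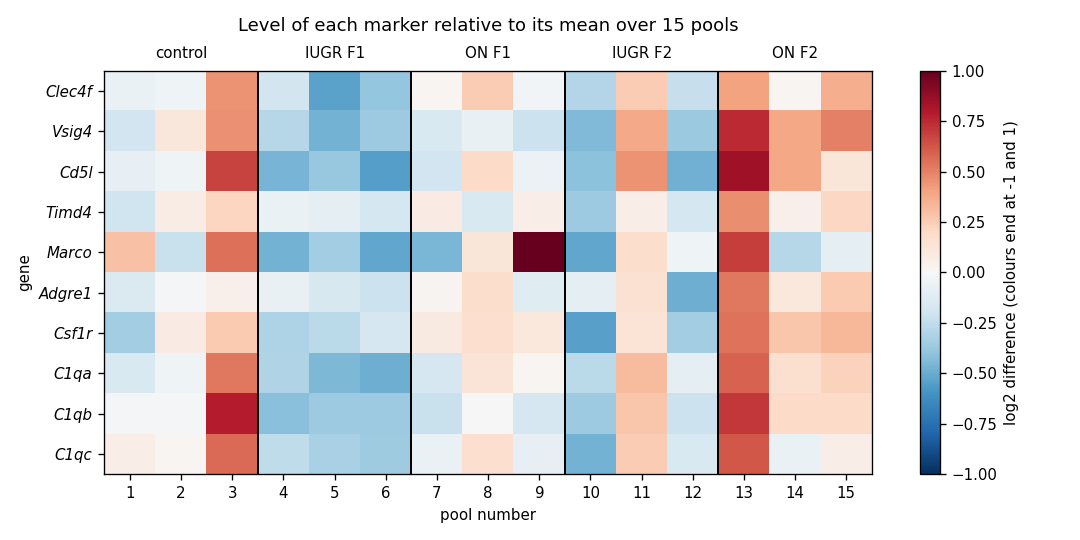
Log2 level of each marker (rows) in each pool (columns 1 to 15) minus the mean of that marker over 15 pools, on a colour scale that ends at -1 and 1. Pools 4, 5 and 6 (IUGR F1), 10 and 12 (IUGR F2) are blue for all 10 markers, and pools 3 (control) and 13 (ON F2) are red for all 10.

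In the sons of these males the markers were lower than control as well, though unevenly between pools. In IUGR F2 10 of 10 markers were lower than control, against 53.4% of all genes, with a median of -0.26 against -0.01. No marker was called (0% of all genes), had an unadjusted p under 0.05 (4.55% lower) or lay wholly below the controls (8.12%). Pool 11 stood apart from the other two: the mean of the 10 markers relative to control was -0.50 in pool 10, -0.38 in pool 12 and 0.12 in pool 11. Without pool 11 the median was -0.47 and 7 markers had an unadjusted p under 0.05, and without control pool 3 it was -0.09 with 9 markers lower. Sinusoidal endothelial genes, markers of the cells that share the sinusoid with Kupffer cells, moved with the markers in the 3 pools of this group. Over all 15 pools they did not (list median against the mean of the 10 markers, r = 0.06). Their median over 14 genes was -0.31, 0.05 and -0.25 in pools 10, 11 and 12, and that of 12 stellate cell genes -0.23, -0.11 and -0.31. Genes of B and plasma cells were lower for 6 of 7, with a median of -0.24, and stood at -0.29, -0.23 and -0.26 in pools 10, 11 and 12 against -0.05, 0.28 and -0.26 in the control pools. The part of these cells in the result was not tested.

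After overfeeding during lactation the markers lay on both sides of control. In ON F1 7 of 10 markers were lower (8178 of all 18193 genes), or 5 to 8 under other scalings of the arrays, with differences from -0.38 for C1qb to 0.13 for Csf1r and a median of -0.07 against 0.02. No marker was called (0.0220% of all genes), none had an unadjusted p under 0.05 (5.03% lower and 8.97% higher) and none lay wholly below the controls (6.23%) or above them (10.2%). Without control pool 3 the median turned to 0.08 with 3 markers lower, and without pool 8, the pool high in interferon response genes, it was -0.15. With the log2 ratio of 3′ to 5′ actin probe sets as a covariate the median also lay above 0.

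In the sons of overfed males most markers stood above control. In ON F2 8 of 10 were higher (9 with arrays centred on the 75th percentile), with 49.3% of all genes, and the median was 0.21 against 0.00. No marker was called (0%), 3 had an unadjusted p under 0.05 in this direction (Vsig4, Adgre1 and Csf1r, against 5.89%) and 2 lay wholly above the controls (Adgre1 and Csf1r, against 8.95%). Pool 13 was the highest of all 15 pools for 7 of the 10 markers and was also the pool with pancreas transcripts. Without it 3 of 10 markers were lower than control, the median was 0.08 and none had an unadjusted p under 0.05. Without control pool 3 the median was 0.38 and all 10 were higher. The pancreas genes ran from 0.12 to 4.29 in ON F2 pools and from -0.04 to 0.04 in control pools, and their part in the marker levels was not tested. Pool 13 was also the highest of all pools in monocyte and neutrophil genes, with a median of 0.27 against -0.01 and -0.15 in the other ON F2 pools. S100a8 read 7.15 there and 4.16 and 4.19 in the other 2, and the part of these cells was not tested either. These 4 comparisons share the control pools, so they are not independent of each other.

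**Figure D3:**
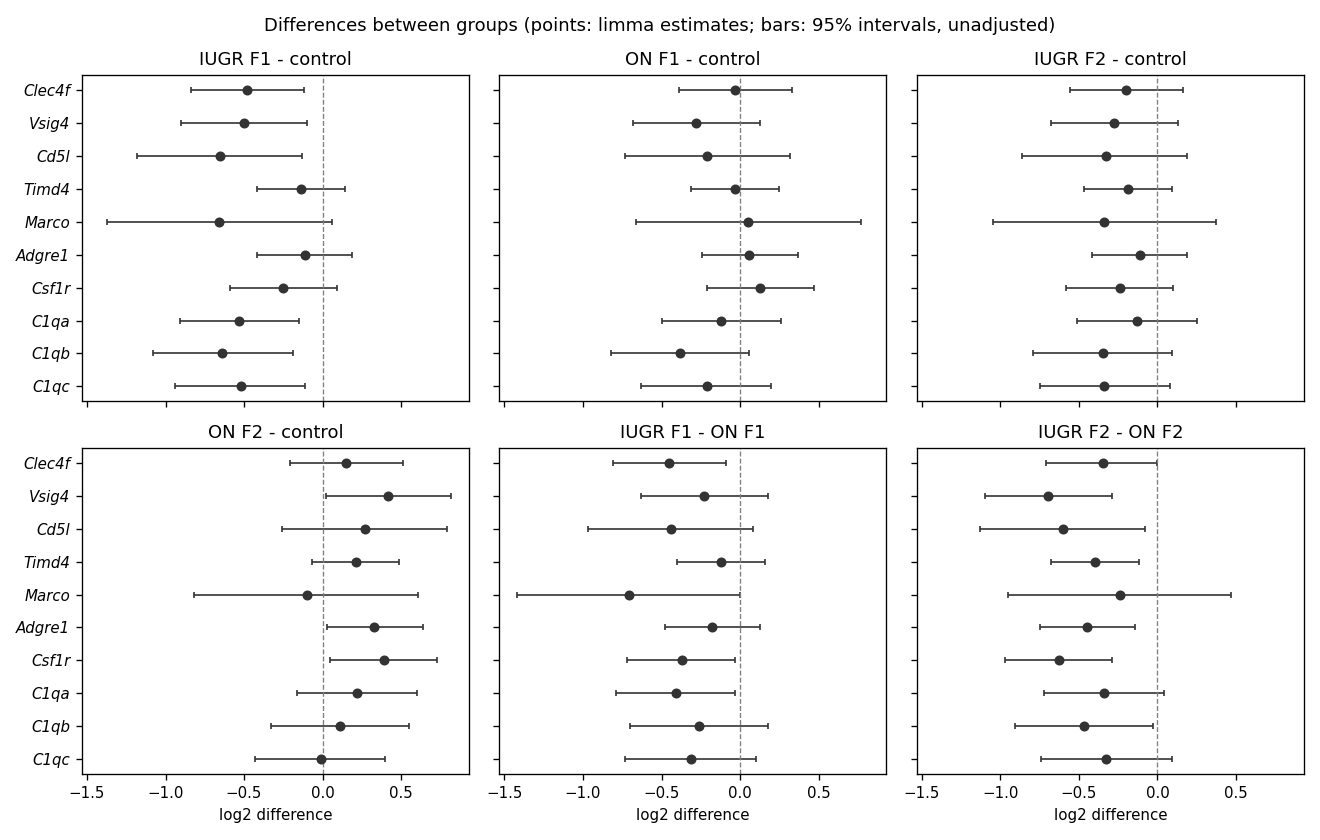
Log2 difference between group means for each marker, estimated with limma (points) with unadjusted 95% intervals (bars), for each group against control and for IUGR against ON in each generation. Against control the 10 estimates lie from -0.66 to -0.11 in IUGR F1 and from -0.10 to 0.42 in ON F2, and all 10 are below 0 in both comparisons of IUGR with ON.

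Differences between the lineages use no control pools. Their SE and p-values still draw on the control pools, because all 15 arrays share 1 estimate of the spread. In the first generation 10 of 10 markers were lower in IUGR than in ON livers (52.3% of all genes), with a median of -0.34 against -0.01. None was called (0.0110% of all genes in either direction), 3 had an unadjusted limma p under 0.05 (Clec4f, Csf1r and C1qa, against 3.95%), and for 7 the IUGR pools lay wholly below the ON pools (5.85%). The lowest estimate was that of Marco, -0.71 ± 0.33 (limma adjusted p = 0.786), where ON F1 pool 9 stood far above the other pools. It was -0.28 without pool 9 and -1.07 without pool 7, and the second Marco probe set gave 0.04 ± 0.13. Interferon response genes were lower for 15 of 15 in this comparison, with a median of -0.87, and were highest in pool 8; their part in the result was not tested. Without pool 5 or without pool 8 the 10 markers were still lower, but none had an unadjusted p under 0.05.

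In the second generation 10 of 10 markers were again lower in IUGR (53.3% of all genes), with a median of -0.42 against -0.01. None was called (0.00550%), 6 had an unadjusted limma p under 0.05 (Vsig4, Cd5l, Timd4, Adgre1, Csf1r and C1qb, against 4.77%), and for Vsig4 and Csf1r the pools did not overlap (8.27%). Without pool 13 the median was -0.29, with 9 markers lower and 4 under an unadjusted p of 0.05. Without pool 11 it was -0.56 with 9 under that p. Genes of other cell types were lower in the same comparison: 14 of 14 sinusoidal endothelial genes with a median of -0.18, 10 of 12 stellate cell genes with a median of -0.16, and 8 of 9 T and NK cell genes (7 to 9 under other scalings) with a median of -0.11. Their part in the marker result, here and in the contrast of both generations that follows, was not tested.

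Both IUGR groups were also set against both ON groups in 1 contrast, chosen after the data had been seen. All 10 Kupffer cell markers were lower in the 6 IUGR pools than in the 6 ON pools, where 53.9% of all genes were lower. The median difference was -0.39 against -0.01 over all genes. No marker and 0% of all 18193 genes were called (smallest limma adjusted p of any gene 0.152), and 9 markers had an unadjusted p under 0.05, against 4.51% of all genes in that direction. Csf1r averaged 8.30 ± 0.22 in IUGR and 8.80 ± 0.17 in ON pools (SD, n = 6), a difference of -0.50 ± 0.11 (limma adjusted p = 0.251). Vsig4 differed by -0.46 ± 0.13 and Clec4f by -0.40 ± 0.12 (limma adjusted p = 0.37 and 0.377). Marco, at -0.47 ± 0.24, was the 1 marker above an unadjusted p of 0.05 (limma adjusted p = 0.623). Over the alternatives the median ran from -0.32, without pool 13, to -0.47, without pool 11, with 7 to 10 markers under an unadjusted p of 0.05.

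Between generations the markers stood higher in the sons. In the IUGR lineage 9 of 10 were higher in F2 than in F1 (41.9% of all genes), though by 0.00 for Adgre1 and Csf1r, both -0.01 with arrays centred on the 75th percentile, with a median of 0.25 against -0.03. C1qa, at 0.40 ± 0.18 (limma adjusted p = 0.413), was the 1 marker with an unadjusted p under 0.05 (4.28% of all genes) and the 1 whose F2 pools all lay above the F1 pools (7.27%). No marker was called (0.0110%), and without pool 11 the median was 0.01 with 5 markers lower. In the ON lineage 9 of 10 were higher in F2 (43.4%), with a median of 0.26 against -0.03. None was called where 1.43% of all genes were, 2 had an unadjusted p under 0.05 (Vsig4 and C1qb, against 6.60%), and 4 did not overlap (Vsig4, Csf1r, C1qa and C1qb, against 7.41%). Without pool 13 the median was 0.17. Marco differed by -0.16 ± 0.33, and by 0.05 as a mean over both of its probe sets.

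Whether the generations differed by unlike amounts in the lineages was tested as an interaction. No marker passed (0.0110% of all genes did), and the estimates ran from -0.47 ± 0.27 for Vsig4 to 0.47 ± 0.47 for Marco (limma adjusted p = 0.72 and 0.857). Over all 5 groups the F test called none of the 10 markers and 0.187% of all genes. Its adjusted p was smallest for Vsig4 (0.111) and Csf1r (0.144) and highest for Marco (0.504). IUGR F1 had the lowest mean for 9 of the 10 markers, against 14.6% of all genes, and IUGR F2 for Timd4. ON F2 had the highest mean for 8 markers, against 21.7% of all genes, control for C1qc and ON F1 for Marco.

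Spread within a group is given as a description only, since each SD rests on 3 pools and the same count was not made over all genes. IUGR F1 pools had the smallest SD of the 5 groups for 7 markers and ON F1 for 3, while IUGR F2 had the largest for 7, control for 2 and ON F1 for 1. For C1qb the SD was 0.03 in IUGR F1 and 0.47 in control. Below the control mean were 10, 10 and 10 markers in the IUGR F1 pools, 10, 1 and 10 in IUGR F2, 9, 7 and 0 in control, 7, 5 and 7 in ON F1 and 0, 4 and 4 in ON F2. Signs of RNA length were set beside the markers: the log2 ratio of 3′ to 5′ actin probe sets, 1.76 to 2.28, correlated with the marker mean at r = -0.07 (n = 15 pools), and the same ratio for Gapdh at -0.23. The clock output gene Dbp correlated with the marker mean at 0.12. Dbp read 5.40, 5.34 and 6.23 in ON F1 and 9.84, 10.71 and 6.54 in ON F2 pools. Its level and the generation thus largely go together in the ON lineage. With Dbp as a covariate, Vsig4 differed there by 0.73 ± 0.24 (limma adjusted p = 0.323).

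The markers varied together from pool to pool. Over 45 gene pairs and 15 pools the median Pearson correlation was 0.81, from 0.29 to 0.96, and 41 pairs had a Benjamini-Hochberg adjusted permutation p under 0.05 by Pearson and by Spearman. All 36 pairs without Marco had r between 0.67 and 0.96, while the 9 pairs with Marco had a median of 0.57. As pools of a group share a treatment, deviations from the group means were correlated too, and their median r was 0.75 over the 45 pairs. C1qa and C1qb, whose products join in 1 molecule, had r = 0.95 and rho = 0.96 (adjusted permutation p = 3.75e-05 for r), r = 0.92 without the 2 pools farthest from the median of C1qa and r = 0.96 for deviations. Cd5l followed C1qb as closely, with r = 0.96 and rho = 0.95, and 0.94 without the 2 farthest pools. Marco and Adgre1 were the least alike pair at r = 0.29.

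**Figure D4:**
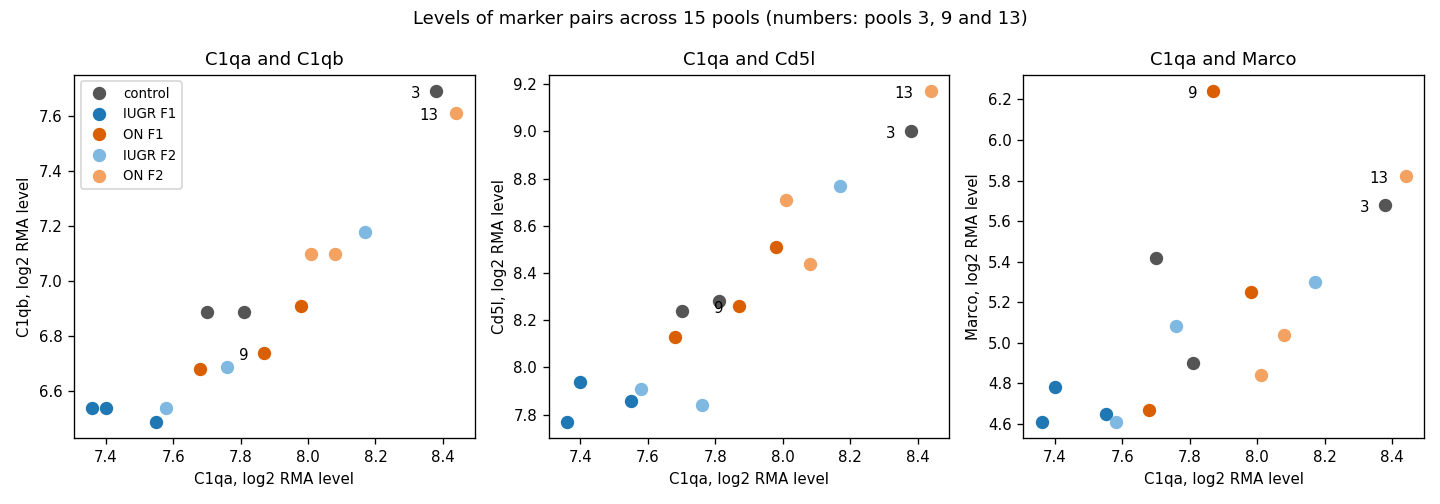
Log2 RMA level of C1qb, Cd5l and Marco (vertical axes) against C1qa (horizontal axes) in 15 pools coloured by group, with pools 3, 9 and 13 numbered. C1qb and Cd5l follow C1qa along a line (r = 0.95 for both), while for Marco (r = 0.65) pool 9 stands at 6.24, above the other pools.

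Of 7808 other genes with a mean of at least 6, those most like the mean of the 10 markers over 15 pools were Ctss (r = 0.94), Tyrobp (0.91), Itm2c (0.89), Lyz2, Fcna and Ctsc (0.83 each), Laptm5 (0.82), Sh3bgrl and Tmsb4x (0.80 each) and Mosmo (0.79), where the median over the ranked genes was -0.01. Ctss and Ctsc encode lysosomal cathepsins, and Lyz2 the lysozyme of myeloid cells. Ctss read 7.91, 8.22 and 8.67 in control and 7.73, 7.67 and 7.55 in IUGR F1 pools, without overlap. Its difference was -0.61 ± 0.18 (limma adjusted p = 0.432).

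A wider list of macrophage genes leaned the same way in IUGR F1, with a median nearer to 0. Of 36 measured genes of other Kupffer cell and macrophage proteins, 30 were lower in IUGR F1 than in control (26 with arrays centred on the 75th percentile), 11 of them and 1 of the higher ones with an unadjusted p under 0.05, and none was called. Their median was -0.24 in IUGR F1, 0.04 in ON F1 (-0.02 with arrays centred on their median), -0.16 in IUGR F2 and 0.11 in ON F2. The mannose receptor Mrc1, named after its values were seen and expressed also by endothelial cells of the sinusoid, differed by -0.03 ± 0.16 (0.01 with arrays centred on the 75th percentile).

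**Figure D5:**
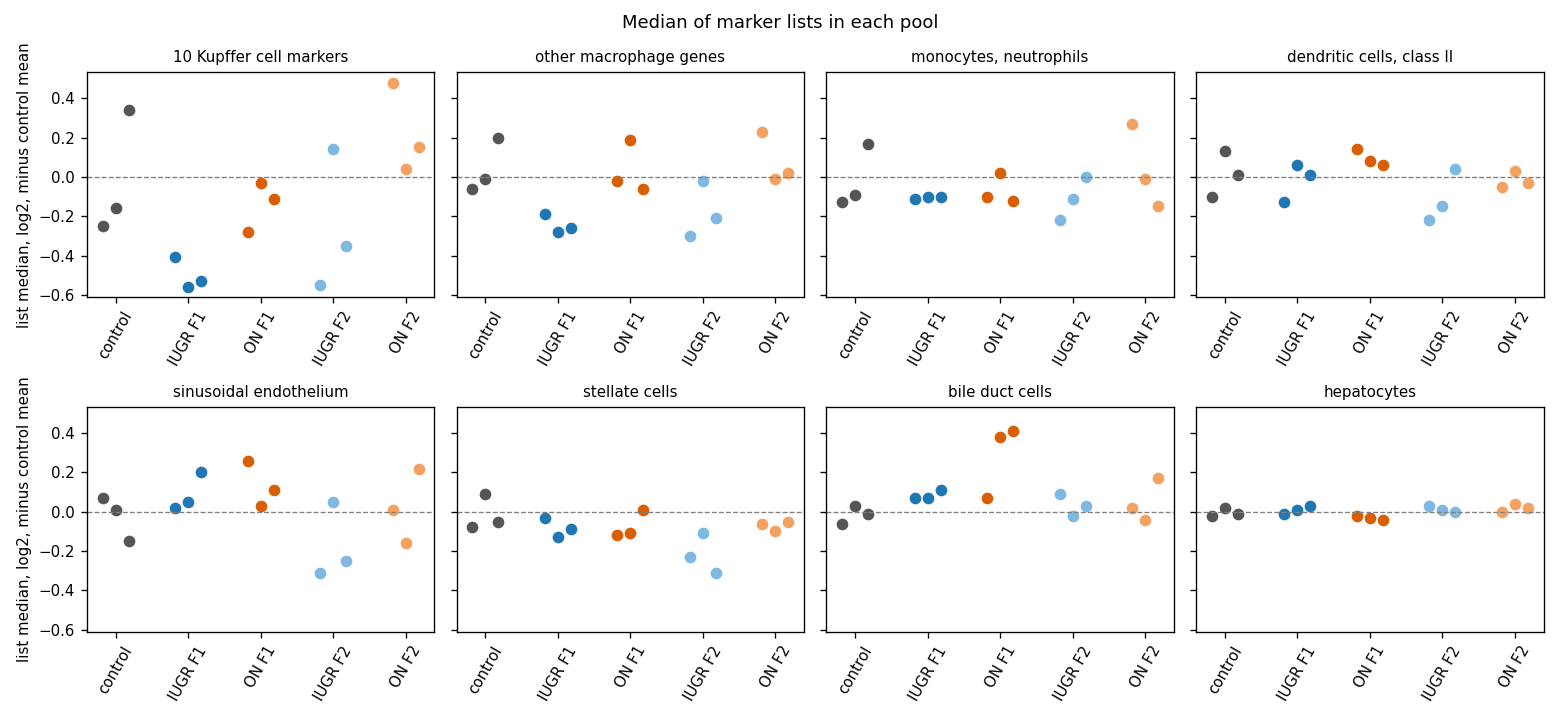
Median log2 level of 8 marker lists in each pool, relative to the control mean of each gene, with pools grouped as control, IUGR F1, ON F1, IUGR F2 and ON F2. The 10 Kupffer cell markers lie between -0.56 and -0.41 in IUGR F1 pools, where sinusoidal endothelial genes lie between 0.02 and 0.20 and hepatocyte genes between -0.01 and 0.03.

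Markers of other cell types gave these values in the same pools. In IUGR F1 sinusoidal endothelial genes were lower than control for 2 of 14, with a median of 0.09 (1 to 4 of 14 under other scalings), and hepatocyte genes for 6 of 11, with a median of 0.00 (2 to 7 of 11). Blood monocyte and neutrophil genes were lower for 9 of 14 and had a list median between -0.11 and -0.10 in the IUGR F1 pools and between -0.13 and 0.17 in the control pools. Genes of dendritic cells and class II presentation were lower for 5 of 11, with a median of 0.03. All 5 were of class II presentation: H2-Eb1 and, named after their values were seen, H2-Ab1 (-0.32), H2-Aa (-0.43), Cd74 (-0.35) and H2-DMa (-0.08). Ciita, also of class II presentation, was higher by 0.20. H2-Eb1, a class II chain that Kupffer cells carry as well, differed by -0.90 ± 0.27 (limma adjusted p = 0.441). Itgax, which encodes the integrin CD11c of dendritic cells, differed the other way, by 0.31 ± 0.12 (limma adjusted p = 0.478). T and NK cell genes were lower for 0 of 9, with a median of 0.14 (1 with arrays centred on their median). Genes of B and plasma cells were lower for 4 of 7 (3 to 5 under other scalings). Their median was -0.03, with differences from -1.09 to 0.29. Stellate cell genes were lower for 9 of 12 with a median of -0.09 (7 with arrays centred on the 75th percentile), and interferon response genes for 14 of 15 with a median of -0.28. None of these list members was called against control in IUGR F1, and the part of any of these cells or responses in the marker levels was not tested.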

How the data were processed

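Liver RNA of 15 pools in 5 groups of 3 was hybridised to 1 array each, per the labels' protocols. The deposited values are log2 levels per probe set, made by the authors with RMA per the submitters' processing notes, with a version not given in the sources used here. RMA equalises the distributions of the arrays and compresses dim probe sets. Of 45037 probe sets without controls, 34945 carried 1 gene symbol, 932 several and 9160 none. Only the first kind was used, and each of 18193 genes was read at its brightest probe set over 15 arrays. No filter on dim genes was applied, although 7830 genes had a mean below 5. The number of arrays limits the precision, and a difference had a standard error of 0.104 in the median gene. Groups came from the treatment labels.

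Group differences were fitted with limma 3.58.1 in R 4.3.3, in 1 model of 5 group means over all arrays (10 residual and 4.69 prior degrees of freedom), two-sided, with p-values adjusted by Benjamini-Hochberg over the 18193 genes of each comparison and a threshold of 0.05. The markers and gene lists were chosen with earlier results of these data known. All 10 markers are named. From each of the other lists the rule names the genes called in any comparison, or otherwise the 2 with the smallest p in IUGR F1 against control, and the ligands, transcription factors and proteases given by name. Genes picked by this rule are printed for only some of the lists described, and the other lists are given as counts and medians. S100a8, Ccr2, Itgam, Plac8, Mrc1, Ciita and the class II genes beside H2-Eb1 were named outside the rule, after their values were seen. Some complement genes are named without values, only to say what their list held. Lists that bear little on the markers are not described. Correlations used 100000 permutations, with a smallest possible p of 1e-05. The fit was tested on simulated data. Alternatives covered the choice of probe set, a filter on dim genes, the variance model, the arrays fitted, array weights, scaling, RNA length and Dbp as covariates, and each pool left out in turn.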

Additional observations from a re-analysis of the deposited data

How the results depend on the processing

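No marker was called in any comparison under any alternative run. Of the medians of the 10 markers, only that of ON F1 against control changed sign. It did so with the actin ratio as a covariate and with a control pool left out, as named below. No paired analysis was possible because the pool numbers 1 to 15 are not shared between groups. Small differences changed sign under some settings, and the cause was not tested. With the mean of all probe sets of a gene, Marco was -0.03 in ON F1 and 0.02 in ON F2 against control and 0.05 in ON F2 against ON F1, and Csf1r -0.03 in IUGR F2 against IUGR F1. Array weights put that Csf1r difference at 0.00, and centring arrays on their median put Marco in ON F1 at 0.00. Centring on the 75th percentile gave 0.01 for Il34 and 0.00 for Nr1h3 in IUGR F1, 0.01 for Clec4f and for Timd4 in ON F1, 0.08 for C1qc in ON F2, and -0.01 for Adgre1 and for Csf1r between IUGR generations. With the actin ratio as a covariate, ON F1 differed from control by 0.11 for Clec4f, 0.06 for Cd5l, 0.10 for Timd4 and 0.01 for C1qa, Adgre1 was 0.02 in IUGR F2, C1qc 0.09 in ON F2, and Timd4 0.04 between IUGR generations. With Dbp as a covariate C1qc was 0.00 in ON F2 and Adgre1 -0.04 between IUGR generations.

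Leaving out single pools turned the sign of further differences, whose ranges were as follows. In ON F1 against control they were -0.12 to 0.14 for Clec4f, -0.34 to 0.04 for Cd5l, -0.14 to 0.06 for Timd4, -0.38 to 0.41 for Marco, -0.01 to 0.14 for Adgre1, -0.04 to 0.26 for Csf1r and -0.25 to 0.09 for C1qa. In IUGR F2 against control they were -0.26 to 0.06 for Adgre1 and -0.29 to 0.08 for C1qa, and in ON F2 against control -0.40 to 0.09 for Marco, -0.06 to 0.38 for C1qb and -0.22 to 0.16 for C1qc. Between IUGR generations they were -0.04 to 0.37 for Vsig4, -0.16 to 0.06 for Timd4, -0.15 to 0.17 for Adgre1, -0.19 to 0.15 for Csf1r and -0.01 to 0.36 for C1qc. Between ON generations Marco ran from -0.51 to 0.27 and C1qc from 0.00 to 0.34, and between second-generation lineages Marco ran from -0.44 to 0.06. In IUGR F1 against control Il34 ran from -0.09 to 0.01 and Spic from -0.23 to 0.04. The median of the markers turned from -0.07 to 0.08 in ON F1 without control pool 3. The calls of C2 and Elmo1 between ON generations were lost under the array weights (limma adjusted p = 0.0567 and 0.0721), in the fit of 2 groups (0.162 and 0.18) and with Dbp as a covariate (0.287 and 0.286). That of Elmo1 was also lost under the mean of its probe sets, the intensity trend, the 75th percentile and the actin covariate.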
